A study of Danio rerio with 18 samples.

Results

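The genes that turn light into a change of membrane potential in rod and cone photoreceptors were followed through 17 ribosome-bound RNA libraries of zebrafish larvae. The group was drawn up as 44 gene names, 3 of them given by Ensembl ID, and was chosen by the fitted HRasG12V effect in these same neutrophil libraries, where several of its cone genes were lower. Of the names, 42 matched 48 of the 31953 Ensembl gene IDs in the files, where every ID that shares a symbol was kept. The names gngt1 and pde6a matched none. The 48 IDs comprise 21 listed as cone genes, 14 as rod genes and 13 that are used in both cell types or in neither one alone. Symbols are printed as the gene-name table gives them, so that some zebrafish genes carry a symbol in capitals, and an ID follows where a symbol stands for more than 1 gene.

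In translating ribosome affinity purification, ribosomes that carry an EGFP-tagged L10a subunit are pulled down and the RNA bound to them is sequenced. Each library came from 50 pooled larvae at 3 days post-fertilization. Keratinocyte libraries came from wildtype larvae injected with a krt4-driven EGFP-L10a plasmid, neutrophil libraries from Tg(LyzC:EGFP-L10a) larvae and macrophage libraries from Tg(mpeg1:EGFP-L10a) larvae. In every group the larvae were also injected with a krt4-driven, RFP-tagged HRas construct, either normal HRas (HRas control) or HRasG12V, the constitutively active form, so that the transformed cells were keratinocytes in all 3 cell types' libraries and were a mosaic of injected cells. There were 3 replicates per group, collected on separate days, and macrophage HRas control replicate 3 was left out of every value below, since it held 16990 counts, of which 2 fell on the 48 genes.

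Phototransduction starts at an opsin, which activates transducin, a G protein of an alpha, a beta and a gamma subunit. Transducin releases the brake on a phosphodiesterase, cGMP falls, and the cGMP-gated channel of the outer segment closes. Kinases and arrestins shut the opsin off again, recoverins regulate this shut-off, and a guanylyl cyclase restores cGMP. Rods and cones use separate genes for most of these steps, and in the zebrafish larva cones mature ahead of rods. Most of these genes are known from photoreceptors of the retina and pineal organ and not as genes of skin or blood cells.

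The 17 libraries held between 6206924 and 14781123 expected counts, of which 72.9% to 94.7% fell on a library's top 10 features. The phototransduction genes together received between 518 and 6295 counts per library. Values below are TMM-normalized CPM, the share of a library's counts on a common scale (normalized CPM). A gene was tested where edgeR's expression filter kept it, which 16011 genes passed, and a call is an adjusted p (Benjamini-Hochberg over those genes) of at most 0.05 in edgeR's quasi-likelihood test with the day as a block. The filter kept 42 of the 48 IDs, 18 cone, 12 rod and 12 others. The 12 neutrophil and 22 keratinocyte marker IDs had counts in the libraries of all 3 cell types. All 22 macrophage IDs had counts in the macrophage libraries. In keratinocyte libraries 20 of them did (MPEG1 and grna.1 had an ID at 0). In neutrophil libraries 19 did (MPEG1, cd74a and cd74b had an ID at 0). For most of these markers, presence of counts alone thus does not separate the cell types. In neutrophil libraries, keratinocyte markers summed to 1100 to 2055 normalized CPM with HRasG12V, and neutrophil markers to 48.9 to 111.4. With HRas control these sums were 1107 to 1821 and 12.7 to 40.8. Averaged over constructs, 21 of 22 keratinocyte markers were called lower in neutrophils than in keratinocytes (6.36% of all genes). Of 10 neutrophil markers tested, 5 were called higher (6.34%), and 4 had a fitted difference below 0. Against macrophages, 3 of these 10 were called higher in neutrophils (1.24%) and 2 lower (3.42%), so the list does not mark neutrophils alone. These are bulk libraries, so fewer cells of a type and less RNA per cell cannot be told apart.

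The 6 IDs that were not tested had almost no reads, and 4 of them are described here. The opsin genes opn1lw1 and opn1mw2, members of the red and green cone opsin families, had 2 counts each over all 17 libraries. The outer segment gene ROM1 (ENSDARG00000026926) had 17 counts and the cone opsin kinase GRK7 (ENSDARG00000055534) 22. Their counts were too low for any comparison between groups.

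Per kilobase of effective length, the scale on which genes can be ranked against each other, the transducin subunits led. The mean over the 17 libraries was 31.6 normalized CPM per kb for GNGT2, the cone transducin gamma subunit, 15.8 for gnb1b, a beta subunit used by rod transducin and by many other cells, and 7.83 for gnb3b, the cone beta subunit. The transcription factor gene crx followed with 7.19, then GNB3 (ENSDARG00000004358), a beta subunit gene matched from the name gnb3a, with 5.81, and GNAT2, the cone transducin alpha subunit, with 5.63. The highest cone opsin was opn1lw2, a red cone opsin, at 4.90. GNGT2 has a median effective length of 419 bases, so its rank rests on a short transcript.

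Summed over their members, cone genes spanned a wider range between libraries than rod genes did. The choice of genes used the neutrophil libraries among these, so nothing is read from this difference in range. The 21 cone IDs summed to between 30.7 and 368.4 normalized CPM, and the 14 rod IDs to between 64.8 and 117.9. Without gnb1b the rod IDs summed to between 17.5 and 59.4. Apart from the neutrophil HRas control library of day 1, the highest cone sum was 175.1, and the highest rod sum without gnb1b was 53.4. In neutrophils the cone sum was 368.4, 102.6 and 145.9 in the HRas control replicates 1 to 3, and 41.3, 57.4 and 30.7 in the HRasG12V replicates. All 3 HRasG12V libraries lay below all 3 controls, and they also held the 3 lowest cone sums of the 17 libraries. The rod sum in neutrophils was 117.9, 90.3 and 97.5 in the controls and 72.9, 85.3 and 92.0 with HRasG12V, so the groups overlapped. The rod gene with the highest level was gnb1b, and without it the rod genes summed to 59.4, 28.4 and 24.7 in the controls and to 20.1, 24.5 and 17.5 with HRasG12V. The remaining rod sums thus lay lower with HRasG12V too, although the highest of them and the lowest control differed by little.

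**Figure D1:**
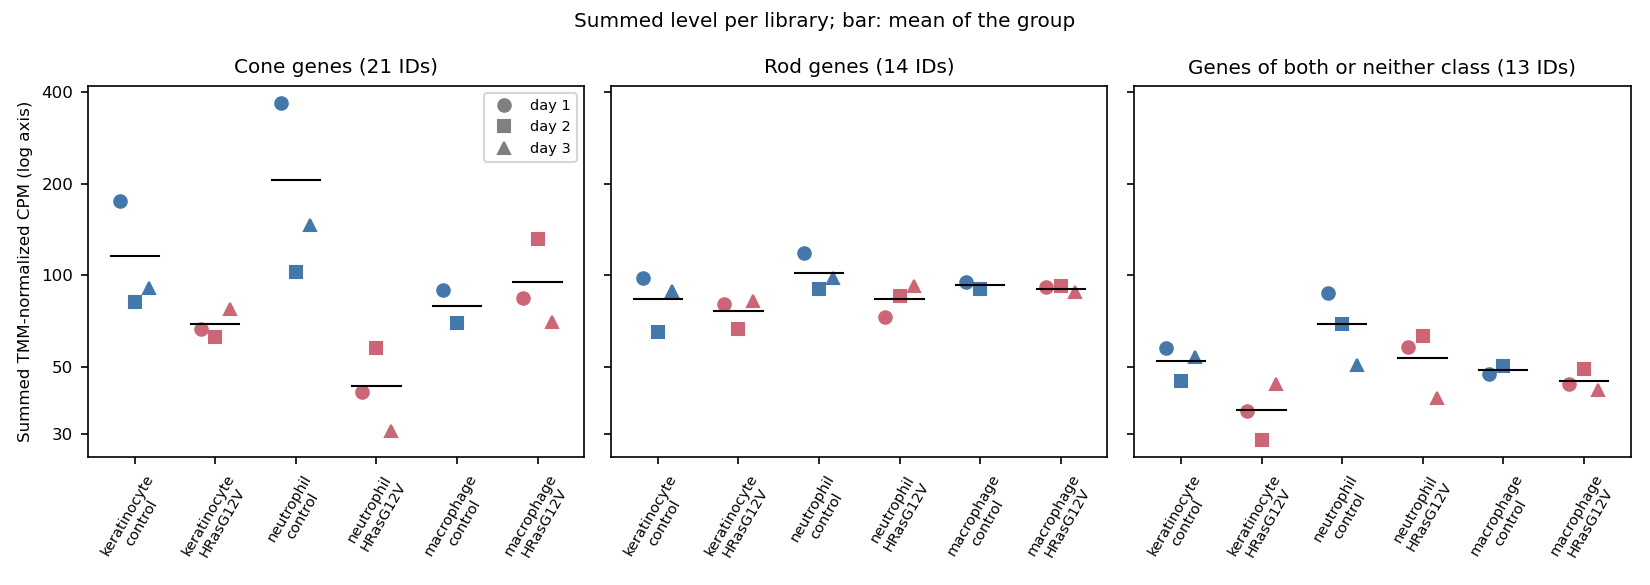
Summed normalized CPM (log axis) of the 21 cone, 14 rod and 13 other IDs in each of the 17 libraries, by group; each point is 1 library, its shape gives the collection day and the bar is the group mean. The neutrophil HRas control library of day 1 stands highest for cone genes at 368.4, and the 3 neutrophil HRasG12V libraries stand lowest at 30.7 to 57.4.

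In keratinocytes the cone sum was 175.1, 81.8 and 90.6 in the controls and 66.6, 62.4 and 77.6 with HRasG12V. These groups did not overlap either, with a smaller gap. In macrophages it was 89.0 and 69.4 in the 2 controls and 84.2, 131.0 and 70.04 with HRasG12V, and there the groups overlapped. Day by day, the log2 ratio of HRasG12V to control for the cone sum was -3.16, -0.84 and -2.25 in neutrophils on days 1, 2 and 3, and -1.39, -0.39 and -0.22 in keratinocytes. In macrophages it was -0.08 on day 1 and 0.92 on day 2. Day 1 gave the lowest ratio in both neutrophils and keratinocytes, and in both the day 1 control was the library with the highest cone sum of its cell type.

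The balance of cone to rod RNA within a library does not depend on the scaling between libraries. The log2 of the cone sum over the rod sum was 0.80 ± 0.75 (SD, n = 3) in neutrophil controls and -0.99 ± 0.53 (SD, n = 3) with HRasG12V, a difference of -1.79. It was 0.40 ± 0.41 (SD, n = 3) and -0.15 ± 0.11 (SD, n = 3) in keratinocytes, a difference of -0.55, and -0.23 ± 0.20 (SD, n = 2) and 0.02 ± 0.44 (SD, n = 3) in macrophages, a difference of 0.26. Without gnb1b in the rod sum the differences were -1.32, -0.39 and -0.29 in the same order, so that the macrophage difference changed sign, and from medians of log2(normalized CPM + 1) over the genes they were -0.76, -0.16 and -0.34. As shares of the summed normalized CPM of the 48 IDs, cone genes made up 64.2%, 39.2% and 49.6% in the neutrophil controls and 24.0%, 27.9% and 19.0% in the neutrophil HRasG12V libraries. The neutrophil difference is the contrast that chose the genes, so it is given as a description with no test.

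Gene by gene, all 18 cone genes tested had a fitted log2 fold change below 0 in neutrophils, with a median of -2.26, beside a median of 0.04 over all 16011 genes. For the 12 rod genes the median was -1.32 with 11 below 0, and for the 12 others -0.73 with 10 below 0. Of the cone genes, 7 were called lower (gnb3b, GNAT2, GNGT2, PDE6C, opn1lw2, OPN1SW and opn1mw1), and no rod gene or other member was, where 0.0999% of all genes were called lower. Groups did not overlap for 14 of the 18 cone genes, 2 of the 12 rod genes and 4 of the 12 others, lower with HRasG12V, beside 5.1% of all genes, and for 1 further member, rom1a, higher, beside 7.71%. Nothing is read from these counts, since the choice of genes used this contrast, and a cone gene called beside a rod gene not called is not a test of their difference.

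The neutrophil HRas control library of day 1 carries much of the size. Without it the cone median was -1.62 with 17 of 18 genes below 0, the rod median was -0.25 with 8 of 12 below 0, and no gene of the group was called. The rod median was also smaller in size without HRasG12V replicate 3 (-0.84), with neutrophil libraries alone (-0.81 over 8 rod genes, where the cone median was -2.11) and where genes averaged 50 counts or more (-0.10 over 2 rod genes, where it was -2.29 over 8 cone genes). Leaving out neutrophil HRasG12V replicate 1 also left no call, and leaving out HRasG12V replicate 3 left gnb3b alone.

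The cone transducin genes showed the pattern at the highest levels. gnb3b read 66.5, 13.4 and 27.8 normalized CPM in the neutrophil controls and 3.88, 5.85 and 5.80 with HRasG12V, a fitted log2 fold change of -2.65 (SE 0.43). GNAT2 read 47.8, 10.96 and 15.9 against 4.74, 5.40 and 1.98 (-2.48, SE 0.40). GNGT2 read 58.5, 15.1 and 22.6 against 4.56, 7.62 and 4.07 (-2.38, SE 0.41). For each of the 3 subunits the day 1 control was the highest library of all 17, and every HRasG12V value lay below every control. Without that control library the fitted changes were -2.004 for gnb3b, -1.87 for GNAT2 and -1.94 for GNGT2.

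In keratinocytes the same 3 genes were not called. gnb3b read 30.6, 7.64 and 13.1 in the controls and 8.17, 11.9 and 10.3 with HRasG12V, and the groups overlapped (log2 fold change -0.66, SE 0.42, adjusted p = 0.80). GNAT2 read 21.7, 13.9 and 10.2 against 7.18, 6.39 and 9.19, which did not overlap (-0.82, SE 0.40, adjusted p = 0.67). GNGT2 read 24.8, 4.81 and 9.63 against 5.63, 5.48 and 5.89 (-1.04, SE 0.42, adjusted p = 0.55). The 3 HRasG12V values of GNGT2 lay close together, and the control of day 2 was below them.

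In macrophages the cone transducin genes had fitted changes at or above 0, and none was called. gnb3b read 8.02 and 7.16 in the controls and 11.05, 19.2 and 6.96 with HRasG12V (0.84, SE 0.47, adjusted p = 1.00). GNAT2 read 8.93 and 3.50 against 9.02, 15.5 and 6.04 (1.06, SE 0.45, adjusted p = 1.00). GNGT2 read 13.9 and 9.90 against 12.6, 15.2 and 4.70 (0.05, SE 0.43, adjusted p = 1.00). Between 2 controls and 3 HRasG12V libraries all 3 genes overlapped, and the HRasG12V library of day 2 was the highest for each. When the model was fitted to the macrophage libraries alone, gnb3b (0.99, adjusted p = 0.032) and GNAT2 (1.11, adjusted p = 0.022) were called higher, where 1.29% of all genes were called higher and 0.456% lower.

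The transducin genes listed with rods differed from each other in level and in fitted change. Without gnb1b, the 11 rod genes tested had a neutrophil median of -1.51, with 10 below 0. gnb1b read 58.5, 61.9 and 72.8 in neutrophil controls and 52.8, 60.8 and 74.4 with HRasG12V (-0.04, SE 0.22). It read 44.2, 42.1 and 51.1 against 46.2, 45.7 and 46.5 in keratinocytes (0.01, SE 0.23, adjusted p = 1.00), and 67.2 and 68.2 against 59.8, 59.5 and 45.0 in macrophages (-0.33, SE 0.25, adjusted p = 1.00). It thus overlapped in neutrophils and keratinocytes, and in macrophages its 3 HRasG12V libraries were the lower ones. GNAT1, the rod transducin alpha subunit, was far lower in level and read 9.39, 4.02 and 1.04 in neutrophil controls and 1.46, 1.97 and 0.86 with HRasG12V, a fitted change of -1.63 (SE 0.55) in groups that overlapped. GNB3, the beta subunit gene listed with neither class, read 15.1, 17.3 and 13.5 against 17.3, 16.9 and 9.38 in neutrophils (-0.10, SE 0.26).

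**Figure D2:**
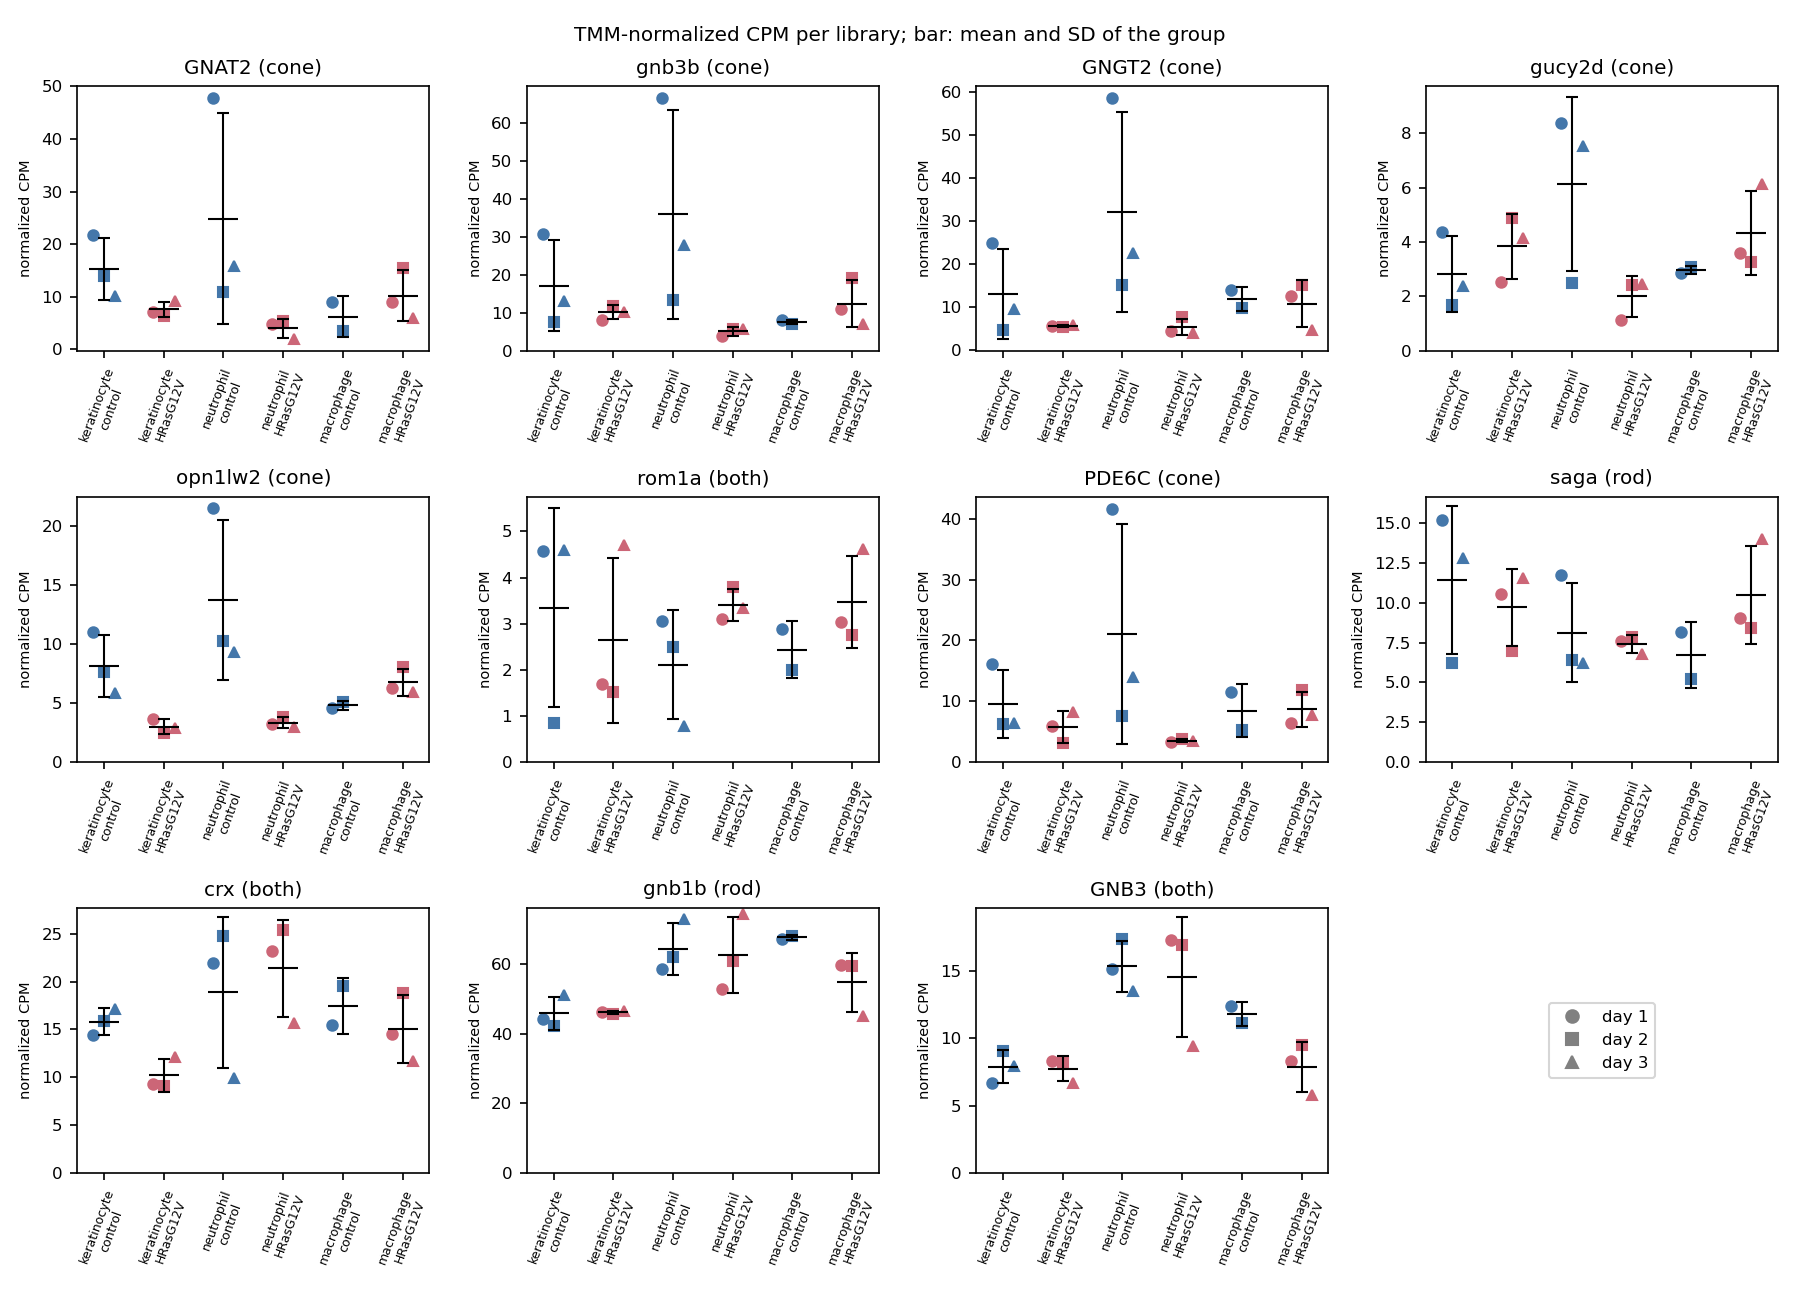
Normalized CPM of 11 phototransduction genes in each of the 17 libraries, one panel per gene with its own axis from 0; each point is 1 library, its shape gives the collection day, and the bar gives the group mean and SD. In the cone genes gnb3b, GNAT2, GNGT2 and PDE6C the day 1 neutrophil control is the highest point, while gnb1b, crx and GNB3 have no such point.

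Among opsins, opn1lw2 lay lower with HRasG12V without overlap in both neutrophils and keratinocytes. It read 21.5, 10.2 and 9.36 in neutrophil controls against 3.19, 3.83 and 2.96 with HRasG12V (-1.98, SE 0.34). In keratinocytes it read 11.05, 7.64 and 5.86 against 3.66, 2.44 and 2.88 (-1.37, SE 0.36, adjusted p = 0.16). This was the member with the smallest unadjusted p in keratinocytes, 6.3e-04, and its change without keratinocyte HRas control replicate 1 was -1.22. In macrophages opn1lw2 read 4.54 and 5.08 against 6.26, 8.03 and 5.96, with no overlap and higher with HRasG12V (0.62, SE 0.38, adjusted p = 1.00). The difference between the macrophage and keratinocyte effects on opn1lw2 was 1.99 (SE 0.53, adjusted p = 0.96), which was not past the threshold.

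The other cone opsins gave the following values. OPN1SW, matched from the ultraviolet opsin name opn1sw1, read 22.6, 4.46 and 4.68 against 1.64, 2.78 and 1.98 in neutrophils (-2.16, SE 0.45), and -1.05 without the day 1 control. opn1mw1, a green cone opsin, read 13.99, 3.36 and 5.46 against 0.69, 1.41 and 0.12 (-2.98, SE 0.61), and the blue opsin opn1sw2 read 7.25, 2.34 and 3.12 against 0.34, 0.91 and 0.25 (-2.84, SE 0.74). The 4 cone opsins measured were thus lower in each neutrophil HRasG12V library than in any neutrophil control.

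In neutrophils both cone phosphodiesterase genes measured lay lower in each HRasG12V library than in any control, and the rod ones overlapped. PDE6C, the catalytic subunit of cones, read 41.7, 7.60 and 14.04 in neutrophil controls and 3.27, 3.78 and 3.46 with HRasG12V (-2.35, SE 0.43), with an SD of 0.26 normalized CPM between the 3 HRasG12V libraries and of 18.1 between the controls. In keratinocytes it read 16.05, 6.22 and 6.42 against 5.92, 3.04 and 8.21 (-0.57, SE 0.43, adjusted p = 0.85), and in macrophages 11.5 and 5.33 against 6.35, 11.9 and 7.72 (0.31, SE 0.46, adjusted p = 1.00). Both of these pairs of groups overlapped. The cone inhibitory subunit pde6ha went from 3.57, 1.97 and 3.38 to 0.17, 0.76 and 0.25 in neutrophils (-2.80, SE 0.78). The rod inhibitory subunit PDE6G read 3.68, 4.09 and 0 against 2.24, 3.63 and 3.09 (0.20, SE 0.54). The rod catalytic subunit PDE6B (ENSDARG00000011671) had a fitted change of -1.98 (SE 0.80), which is within 1 SE of that of PDE6C.

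Among the channel and cyclase genes counts were low. The cone guanylyl cyclase gene gucy2d, matched from the name gc3, read 8.37, 2.49 and 7.54 in neutrophil controls and 1.12, 2.42 and 2.47 with HRasG12V (-1.52, SE 0.48), where the highest HRasG12V value lay just below the lowest control. In keratinocytes it read 4.38, 1.70 and 2.37 against 2.54, 4.87 and 4.14 (0.41, SE 0.51, adjusted p = 0.92), and in macrophages 2.87 and 3.08 against 3.59, 3.28 and 6.12 (0.36, SE 0.54, adjusted p = 1.00). The channel genes CNGA3, CNGA1, cngb1a and cngb3.1 averaged 1.44 normalized CPM or less over the 17 libraries. CNGA3 (ENSDARG00000012297) had 1 count in all keratinocyte controls and 2 in all neutrophil HRasG12V libraries, and CNGA1 (ENSDARG00000029898) had 3 in all keratinocyte HRasG12V libraries, so no fold change is given for them. Without such IDs the medians were -2.16 for cone genes in neutrophils, -0.48 for cone genes in keratinocytes and -0.21 for rod genes in keratinocytes.

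Among shut-off genes, the rod genes saga and GRK1 had fitted changes near 0 in neutrophils, and the rod gene sagb lay within the range of the cone genes. The rod arrestin saga read 11.7, 6.43 and 6.24 in neutrophil controls and 7.58, 7.87 and 6.79 with HRasG12V (-0.10, SE 0.31), and the rod kinase GRK1, which phosphorylates activated opsin, had a fitted change of -0.04 (SE 0.40). The other rod arrestin gene, sagb, read 5.10, 2.49 and 5.46 against 1.81, 1.92 and 0.12 (-1.51, SE 0.59), so that the paired arrestin genes differed in that one overlapped and the other did not. The cone arrestin ARR3 read 21.8, 9.57 and 11.2 against 6.63, 8.53 and 2.35 for ENSDARG00000056511 (-1.30, SE 0.39), with a change of -1.70 (SE 0.49) for ENSDARG00000098475. GRK7 (ENSDARG00000020602) had a fitted change of -2.50 (SE 0.57), and the recoverin IDs with the symbol RCVRN of -1.79 (SE 0.48) and -1.07 (SE 0.45). In keratinocytes saga read 15.2, 6.22 and 12.8 against 10.6, 7.001 and 11.6 (-0.21, SE 0.32, adjusted p = 0.95), and in macrophages 8.17 and 5.24 against 9.02, 8.42 and 14.01 (0.61, SE 0.36, adjusted p = 1.00).

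Of the 12 tested members used in both cell types or in neither one alone, 10 had a fitted change below 0 in neutrophils. The 2 above 0 were rom1a and crx (ENSDARG00000011989). A second ID matched from the name crx, CRX (ENSDARG00000043483), read 4.19, 8.62 and 7.80 in neutrophil controls and 7.15, 7.67 and 4.69 with HRasG12V. Among the outer segment structure genes, PRPH2 (ENSDARG00000014840), a disc rim protein, and rp1l1b had fitted changes of -2.65 (SE 0.61) and -3.15 (SE 0.87) in neutrophils. rom1a, whose product pairs with peripherin at the disc rim, read 3.06, 2.49 and 0.78 against 3.1004, 3.78 and 3.33 (0.57, SE 0.52) and was the only tested member with every neutrophil HRasG12V library above every control. In keratinocytes rom1a read 4.59, 0.85 and 4.61 against 1.69, 1.52 and 4.70 (-0.31, SE 0.55, adjusted p = 0.96), and in macrophages 2.87 and 2.00 against 3.04, 2.76 and 4.61 (0.36, SE 0.59, adjusted p = 1.00). The transcription factor gene crx, which switches on photoreceptor genes, read 21.95, 24.8 and 9.88 in neutrophil controls and 23.2, 25.4 and 15.7 with HRasG12V (0.18, SE 0.27), with overlap. In keratinocytes crx read 14.4, 15.8 and 17.2 against 9.30, 9.13 and 12.1 (-0.59, SE 0.29, adjusted p = 0.67), which did not overlap, and in macrophages 15.4 and 19.6 against 14.5, 18.8 and 11.7 (-0.12, SE 0.31, adjusted p = 1.00).

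**Figure D3:**
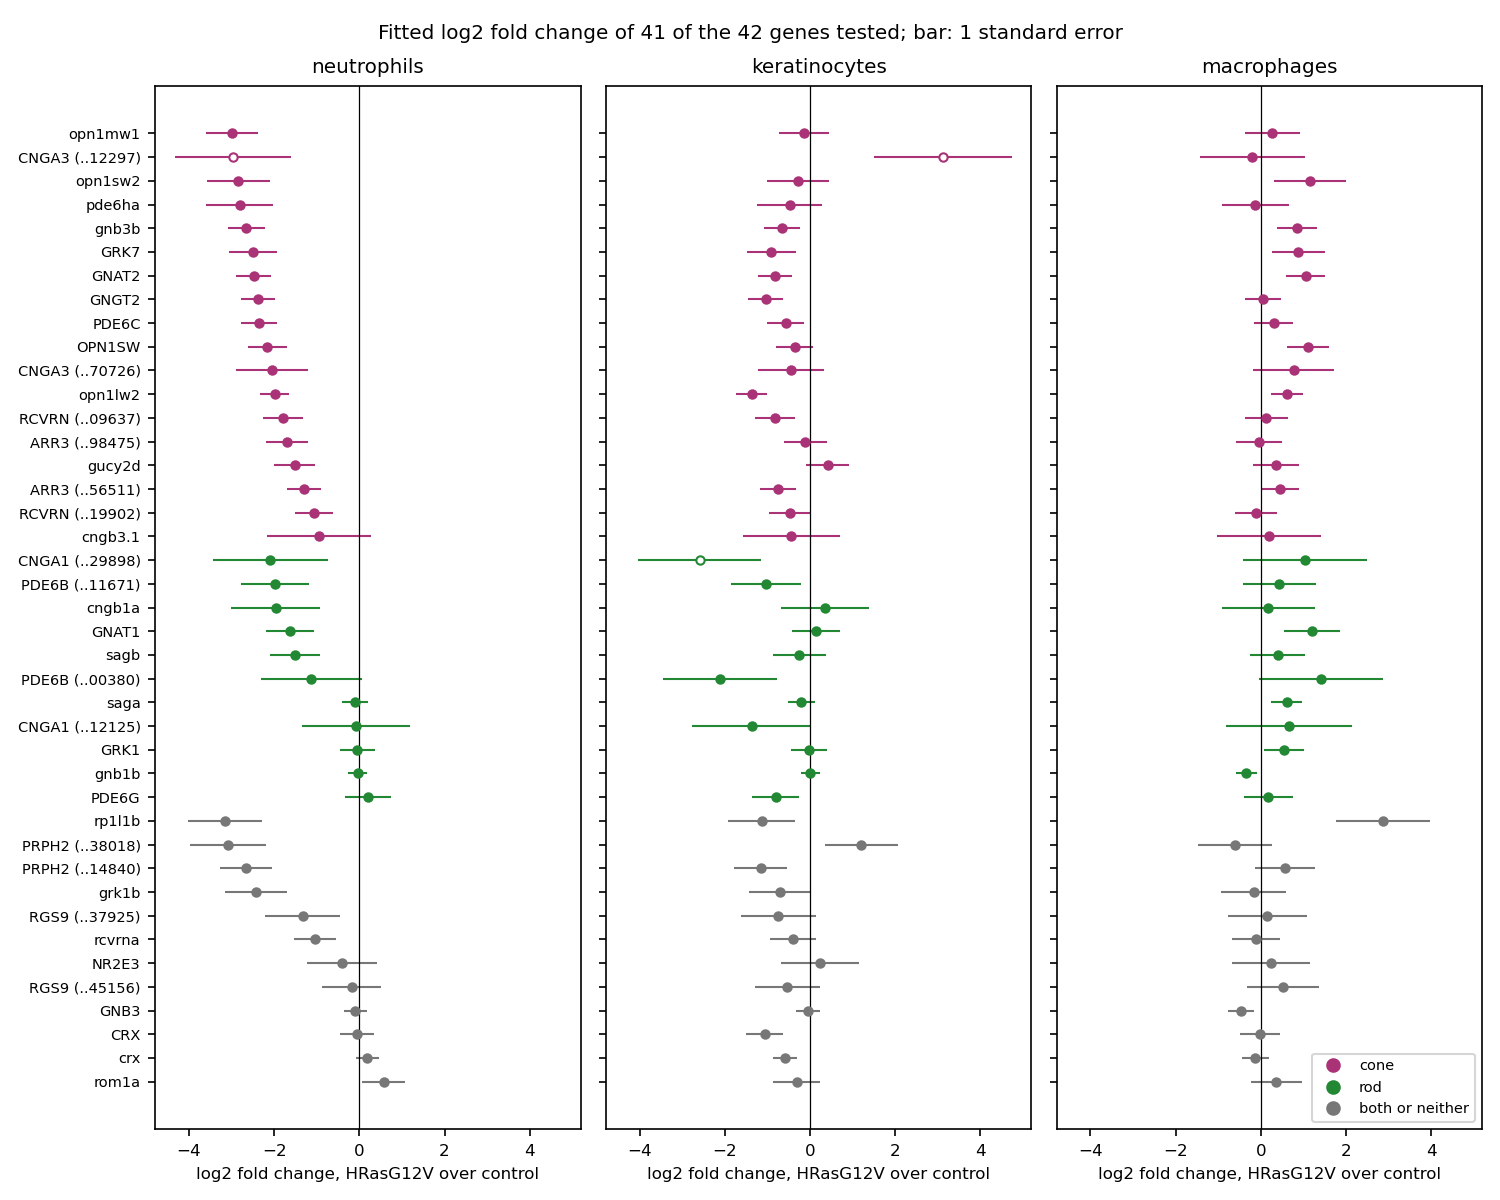
Fitted log2 fold change of HRasG12V over HRas control (horizontal axis) for 41 of the 42 genes tested, in neutrophils, keratinocytes and macrophages, in 1 order for all panels; points are coloured by class, bars are 1 standard error, digits in brackets are the end of the ID where a symbol repeats, and open points are IDs with 3 or fewer counts in a whole group. All 18 cone genes lie left of 0 in neutrophils, 16 of 18 in keratinocytes and 4 of 18 in macrophages.

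Over the whole group, no member was called in keratinocytes, where 0.00625% of all genes were called lower and 0.256% higher. Without adjustment 5 of the 42 had a p under 0.05 in edgeR, as had 1158 of the 16011 genes, and DESeq2 called none. The 5 were opn1lw2, GNGT2, GNAT2, CRX (ENSDARG00000043483) and crx (ENSDARG00000011989), all lower. The keratinocyte median was -0.48 for cone genes with 16 of 18 below 0, -0.23 for rod genes (0.21 when only library size was scaled, which moved the median of all genes to 0.39) and -0.56 for the others, beside 0.01 over all genes. Groups did not overlap, lower with HRasG12V, for 4 of 18 cone genes, 1 of 12 rod genes and 2 of 12 others, beside 5.02% of all genes, and higher for 1 cone gene, CNGA3 (ENSDARG00000012297), beside 6.75%. In the same keratinocyte libraries skeletal muscle genes summed to between 886.4 and 1458 normalized CPM in the controls and between 2810 and 3734 with HRasG12V. Of 26 muscle genes tested 14 were called higher in edgeR and 21 lay higher without overlap, with a median of 1.95. The part of this muscle RNA in the keratinocyte cone values was not tested.

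In macrophages no member was called either, and 0% of all genes were called in each direction. In edgeR 3 members had an unadjusted p under 0.05 (GNAT2, OPN1SW and rp1l1b, all higher), as had 484 of all genes, and DESeq2 called none. The macrophage median was 0.33 for cone genes with 4 of 18 below 0, 0.55 for rod genes with 1 of 12 below 0, and 0.07 for the others, beside 0.03 over all genes. Of the rod genes, 6 of 12 lay higher with HRasG12V without overlap (GNAT1, saga, sagb, CNGA1 and both IDs of PDE6B), beside 9.58% of all genes, in a comparison of 3 libraries with 2. So did 3 of 18 cone genes (gucy2d, opn1lw2 and OPN1SW) and 1 of 12 others (rp1l1b). Levels were low for CNGA1 (ENSDARG00000029898), at 0.15 and 0.42 in the controls against 0.55, 0.48 and 0.92 with HRasG12V. They were also low for PDE6B (ENSDARG00000000380), at 0.15 and 0.25 against 0.37, 0.86 and 0.50. GNB3 and gnb1b lay lower without overlap, beside 8.98% of all genes. Skeletal muscle sums were between 1234 and 1356 in the macrophage controls and between 1597 and 2293 with HRasG12V, with none of 26 genes called and 12 at an unadjusted p under 0.05 in edgeR, and their part in the macrophage values was not tested.

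The effects were also compared between cell types. For macrophages against keratinocytes, 0 members were called in edgeR (0.0125% of all genes were called lower), and DESeq2 called none. Without adjustment 6 members had a p under 0.05 in edgeR, as had 589 of the 16011 genes. The median difference was 1.03 for cone genes and 0.90 for rod genes, with macrophages higher. For neutrophils against macrophages the fitted difference was -3.49 (SE 0.64) for gnb3b and -3.54 (SE 0.60) for GNAT2, and the cone median was -2.67 against -2.02 for rod genes. For neutrophils against keratinocytes the cone median was -1.63, with 18 of 18 below 0, and the rod median -0.04, with 7 of 12 below 0. Comparisons that involve neutrophils contain the contrast that chose the genes and are given as descriptions.

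With both constructs averaged, levels of the group hardly separated the cell types. Between macrophages and keratinocytes no member was called in edgeR, where 2.31% of all genes were called lower and 2.65% higher in macrophages, and DESeq2 called none. Without adjustment 5 members had a p under 0.05 in edgeR, as had 2560 of the 16011 genes. GNB3 was higher in neutrophils than in keratinocytes by 0.90 on the log2 scale (SE 0.20, adjusted p = 0.0017), with 6 of 6 neutrophil libraries above all 6 keratinocyte libraries, which read 6.67, 9.05 and 7.96 with HRas control and 8.31, 8.22 and 6.67 with HRasG12V. crx was higher in neutrophils than in keratinocytes by 0.60 (SE 0.20, adjusted p = 0.043), in groups that overlapped. These were 2 of 42 members, beside 6.34% of all genes called higher and 6.36% called lower in neutrophils. The call for GNB3 held when each library was left out in turn (adjusted p between 0.0014 and 0.010). That for crx was lost in 10 of 17 such fits, up to an adjusted p of 0.12: without any neutrophil or keratinocyte library of day 1 or day 2, or without either macrophage library of day 1.

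GNB3 was also higher in neutrophils than in macrophages, which read 12.4 and 11.2 with HRas control and 8.29, 9.46 and 5.79 with HRasG12V (log2 difference 0.69, SE 0.20, adjusted p = 0.039, 1 of 42 members beside 1.24% of all genes called higher and 3.42% lower). The neutrophil library with the lowest value, 9.38, lay within the macrophage range. This call was lost in 8 of the 17 fits that left out 1 library, up to an adjusted p of 0.25: without any neutrophil library of day 1 or day 2, either macrophage library of day 1, macrophage HRas control replicate 2 or macrophage HRasG12V replicate 3. It was also lost without the day block (adjusted p = 0.081). gnb1b was 0.46 higher in neutrophils than in keratinocytes (SE 0.16, adjusted p = 0.053).

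Other genes of the pathway and of the eye were read from lists drawn up by hand. Of 31 further phototransduction IDs, 19 were tested and none was called in neutrophils, with 16 of the 19 below 0 and a median of -0.73. The most abundant of them, the calmodulin gene calm1a and the beta subunit gene gnb1a, which act in many cell types, had fitted changes of 0.06 (SE 0.28) and -0.08 (SE 0.24). Visual cycle genes, which rebuild the opsin's chromophore, had a median of -0.50 over 14 genes, with none called. Other photoreceptor genes had a median of -0.67 over 33 genes, of which CPLX4 (ENSDARG00000059978), a complexin of ribbon synapses, was called lower (-1.71, SE 0.35, adjusted p = 0.030 in edgeR). Another ID with the symbol CPLX4 had no counts in any of the 3 cell types. The call for CPLX4 was lost without neutrophil HRas control replicate 1 or any 1 of the 3 neutrophil HRasG12V replicates (adjusted p up to 0.30), with library size alone and with neutrophil libraries alone (up to 0.95). Their summed level was 207.0, 165.3 and 141.7 normalized CPM in neutrophil controls and 117.7, 133.3 and 121.0 with HRasG12V, so these groups did not overlap. In keratinocytes and macrophages no gene of these 3 lists was called.

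**Figure D4:**
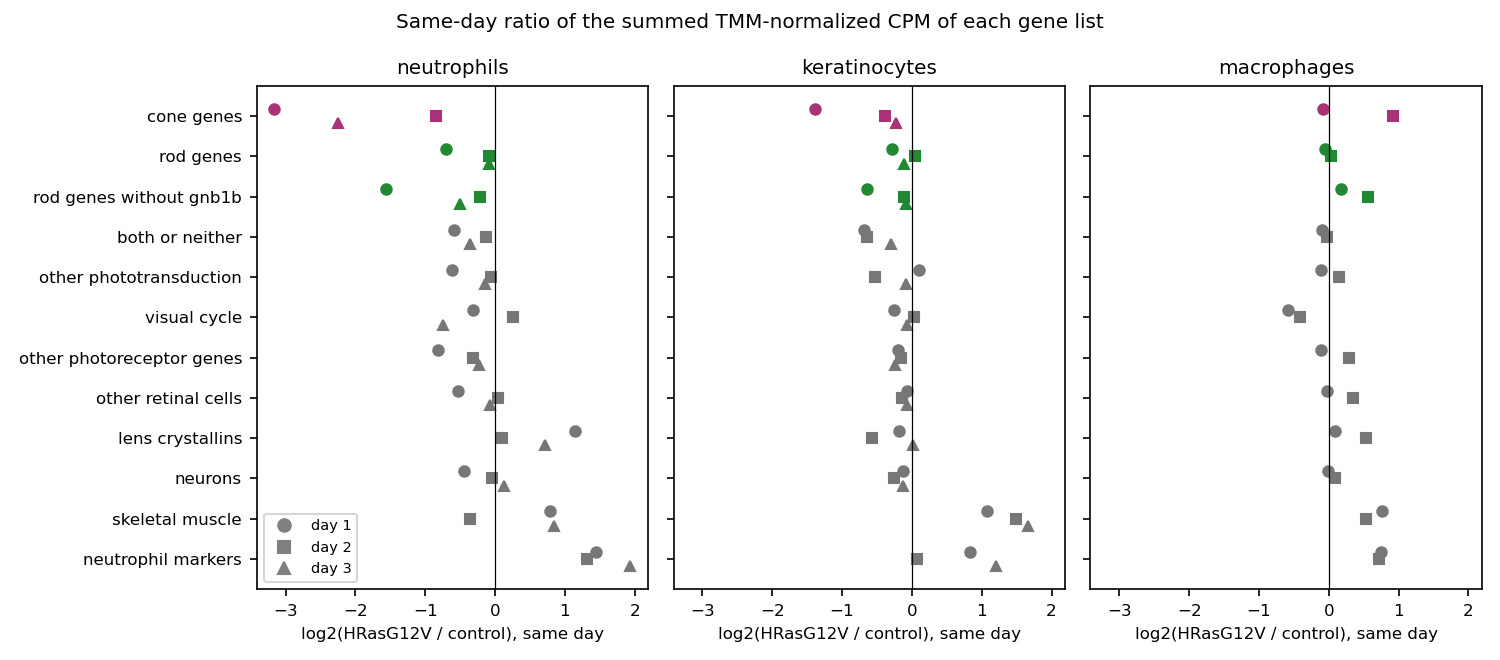
Log2 ratio of HRasG12V to HRas control within each collection day (horizontal axis), from the summed normalized CPM of each gene list, in neutrophils, keratinocytes and macrophages; each point is 1 day, its shape gives the day, and macrophages have 2 days. In neutrophils the cone genes lie at -3.16, -0.84 and -2.25, and the neutrophil markers at 1.45, 1.31 and 1.94.

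Markers of other tissues differed from the cone genes in the direction or size of their change in the same libraries. Genes of other retinal cells summed to between 277.0 and 382.7 in neutrophil controls and between 265.9 and 339.2 with HRasG12V, with counts for 43 of 43 IDs. Neuron genes summed to between 1038 and 1322 and between 969 and 1380, with counts for 23 of 23. Both lists overlapped between the groups. Their median changes were -0.22 with 22 of 38 genes below 0 and -0.17 with 18 of 23 below 0. Pineal genes summed to between 9.1 and 16.9 in the controls and between 9.3 and 11.3 with HRasG12V, which overlapped too. Of 5 pineal genes tested 4 were below 0, with a median of -0.28. Lens crystallins summed to between 59.8 and 187.8 in the controls and between 98.5 and 317.5 with HRasG12V, with counts for 27 of 34 IDs (CRYAB, CRYBB2, CRYBB3, CRYGS, crygs3, crygs4 and crygm3 had an ID at 0 counts), and their median change was 0.59, none called. Skeletal muscle genes summed to between 399.7 and 1763 and between 719.2 and 2973, with counts for 29 of 29. Their median change was 0.48. None of the lens, neuron or muscle sums was thus lower in every HRasG12V library as the cone sum was.

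Neutrophil markers moved against the cone genes. They summed to 40.8, 36.8 and 12.7 in the neutrophil controls and to 111.4, 91.6 and 48.9 with HRasG12V, with counts for 12 of 12 IDs, and 7 of the 10 tested lay higher without overlap, beside 7.71% of all genes. lyz, the lysozyme gene whose promoter drives the tag, was called higher (1.94, SE 0.42, adjusted p = 0.038), as was NCF1, a subunit of the phagocyte oxidase (2.40, SE 0.51, adjusted p = 0.036), both in edgeR. These were 2 of the 10 tested, beside 0.05% of all genes called higher. The paper lists ncf1 among its macrophage genes. The call for lyz was lost without any 1 of the 6 neutrophil libraries (adjusted p up to 0.35), and that for NCF1 without 7 of the 17 libraries, among them all 3 neutrophil HRasG12V replicates (up to 0.37). Both calls were also lost with library size alone, with no day block and with neutrophil libraries alone, and that for lyz with DESeq2 and where only genes averaging 50 counts or more were tested. The log2 ratio of the marker sum was 0.83, 0.07 and 1.201 in keratinocytes on days 1, 2 and 3, and 0.75 and 0.71 in macrophages on days 1 and 2. Macrophage markers also rose in the neutrophil libraries, with log2 ratios of 0.68, 0.46 and 0.41 on days 1, 2 and 3. Their sums overlapped between the groups. Their median change was 1.18, with 12 of 17 genes above 0 and none called, so the rise was not particular to neutrophil markers. The part of the neutrophil share, and of the other tissues' RNA, in the lower cone values was not tested.

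Over the 17 libraries, the genes outside the list whose log2(normalized CPM + 1) followed that of the cone sum most closely included hap1 (Pearson's r = 0.90), ly6pge (0.88), GNG11 (0.86), si:dkey-17e16.15 (0.86), ENSDARG00000099299 (0.84), si:ch211-285j22.3 (0.83), CPLX4 (0.80 for ENSDARG00000059978), TKT (0.78) and NXNL1 (0.78). Without the day 1 neutrophil control these values were between 0.62 for CPLX4 and 0.84 for ly6pge. Within the list, r was 0.95 for GNAT2 and 0.94 for both PDE6C and gnb3b, which are part of the sum, 0.72 for rp1l1b, and close to 0 for crx (0.07), gnb1b (-0.03), PDE6G (-0.03) and rom1a (-0.04). Rod genes were not all near 0: r was 0.73 for PDE6B (ENSDARG00000011671), 0.67 for GNAT1 and sagb, 0.36 for saga and 0.24 for GRK1. Nor did every cone gene follow the sum, with r of 0.15 and 0.26 for the CNGA3 IDs. These values share 1 high library and the groups of the design, and they are given as descriptions.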

How the data were processed

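Gene expected counts were estimated by the authors with RSEM 1.2.20 from Bowtie 1.1.1 alignments of single-end reads to the GRCz10 genome, after amplification with 20 PCR cycles. The deposited expected counts are not normalized and were rounded here. The deposited TPM values, RSEM's length-scaled shares, were used in an alternative, and the authors' effective lengths (deposited, in bases) served for levels per kilobase. Symbols came from the gene-name table and synonyms from a RefSeq table of another assembly, so no coordinates are given.

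The members and gene lists were chosen with earlier results of these data known. Of the 44 names, 3 matched by ID, 21 by symbol, 6 by synonym and 12 without the final letter or number. RSEM divides reads between similar genes, so values of paralogues are uncertain.

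Counts were analysed in R 4.3.3 with edgeR 4.0.16: filterByExpr over 6 groups, TMM factors, and 1 quasi-likelihood model with 6 groups and 3 days for 17 libraries. The paper's methods model the replicate, to control for possible batch effects, and the labels give a batch number. The 3 separate collection days come from a figure legend of the paper, and the replicate number was taken here as the day. The deviations of HRas control and HRasG12V libraries of the same number correlated with r between -0.07 and 0.33 (5 of 8 over 0.1). Replicates are separate pools of 50 larvae, and precision is set by their spread. Alternatives were DESeq2 1.42.0, its size factors, library size alone, 2 other filters, no day block, all 18 libraries, fewer libraries, and no top 10 features. Leaving out day 1 altogether was chosen after seeing the data. Values in every library are given for the 3 genes listed by ID, the highest gene of each role and class, and members called outside the neutrophil effect. Other genes printed with values, such as OPN1SW and GNAT1, were chosen after their values were seen. Some genes are not reported here by name.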

Additional observations from a re-analysis of the deposited data

Results flagged for a closer look

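The difference between the neutrophil and macrophage effects of HRasG12V was past the threshold for 2 genes, both of them cone transducin genes and the only genes called among 16011. It was -3.49 on the log2 scale for gnb3b (SE 0.64, adjusted p = 0.033 in edgeR) and -3.54 for GNAT2 (SE 0.60, adjusted p = 0.022). The neutrophil part of this difference is the contrast that chose the genes. Both calls are therefore given as a description and are no independent test of these genes. Over the 17 fits that left out 1 library the adjusted p reached 0.35 for gnb3b and 0.23 for GNAT2, and neither was called without neutrophil HRas control replicate 1, neutrophil HRasG12V replicate 1, macrophage HRas control replicate 2 or macrophage HRasG12V replicate 2. In addition gnb3b was not called without macrophage HRas control replicate 1 or keratinocyte HRas control replicate 3, nor GNAT2 without neutrophil HRasG12V replicate 3. Without the day block the differences were -3.52 and -3.36, with an adjusted p of 0.11 for both.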

How the results depend on the processing

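The number of members called in neutrophils depended on the processing. It was 7 in the reported fit, 16 with all genes of at least 1 count, 14 with DESeq2, 11 with all 18 libraries, 1 without replicate 1 (day 1), and 0 with library size alone or with neutrophil libraries alone. It ranged from 0 to 10 when each library was left out. Calls over all genes changed with these settings too. In the reported fit 16 genes were called lower and 8 higher of 16011. With at least 1 count these were 72 and 40 of 25830, with DESeq2 43 and 23, and with all 18 libraries 29 and 13 of 14685. With library size alone they were 6 and 4, and with neutrophil libraries alone 1 and 0 of 12073. The keratinocyte effect and the macrophage against keratinocyte effect stayed at 0 members in all alternatives, and the macrophage effect did except for 2 with macrophage libraries alone. In that fit 1.29% of all genes were called higher and 0.456% lower. For neutrophils against macrophages 2 members were called, but 9 with at least 1 count, 6 with all 18 libraries, 4 with DESeq2 or its size factors, 1 without day 1, and 0 with a mean of at least 50 counts, with no replicate block or with those cell types alone (0 to 7 when each library was left out). For neutrophils against keratinocytes the count of 0 became 2 with at least 1 count. Level calls for neutrophils against keratinocytes (2) fell to 1 with library size alone, all 18 libraries or those cell types alone, and to 0 without day 1 (1 to 3 when each library was left out). For neutrophils against macrophages (1) they fell to 0 with library size alone, at least 1 count, no replicate block, all 18 libraries or without day 1 (0 to 1), and for macrophages against keratinocytes the 0 became 1 with library size alone (0 to 1). Dropping the block changed no other count. For the comparisons between cell types, calls over all genes in the alternatives are not given here, so nothing is read from changes in their member counts.

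The cone to rod differences of -1.79, -0.55 and 0.26 (neutrophils, keratinocytes, macrophages) became -0.76, -0.16 and -0.34 with medians over genes, and the macrophage value -0.29 without gnb1b. Leaving out 1 library, or day 1, gave -2.10 to -1.37, -0.74 to -0.27 and 0.01 to 0.47. The left-out macrophage library had 2 counts on the members, so no ratio over 18 libraries was possible. Over 27 alternatives the median fitted change ranged from -2.66 to -1.62 for cone and -1.72 to -0.10 for rod genes in neutrophils, from -1.12 to -0.033 and -0.56 to 0.21 in keratinocytes, and from 0.070 to 1.16 and 0.16 to 1.29 in macrophages.

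Signs of changes near 0 turned. Library size alone moved the median of all genes to 0.49 in neutrophils, 0.39 in keratinocytes and 0.76 in macrophages. It gave 0.36 for saga, 0.44 for gnb1b and 0.39 for GNB3 in neutrophils, and 0.13 for rom1a, 0.18 for saga and 0.35 for GNB3 in keratinocytes. In macrophages it gave 0.61 for crx, 0.42 for gnb1b and 0.27 for GNB3. gnb1b in keratinocytes was -0.01 with DESeq2 (-0.0085), its size factors (-0.0054) or a mean of at least 50 counts (-0.011), and GNGT2 in macrophages -0.12 with no replicate block. Without day 1, rom1a in keratinocytes (0.21) and saga in neutrophils (0.19) turned positive. Leaving out 1 library, or day 1, gave ranges of -0.40 to 0.19 for saga, -0.095 to 0.35 for crx, -0.17 to 0.061 for gnb1b and -0.28 to 0.068 for GNB3 in neutrophils. The ranges were -1.05 to 0.051 for gnb3b, -1.03 to 0.21 for rom1a, -0.067 to 0.065 for gnb1b and -0.22 to 0.17 for GNB3 in keratinocytes, and -0.56 to 0.30 for GNGT2 and -0.44 to 0.77 for PDE6C in macrophages. Where this left an arm with 1 macrophage control, that library was assumed to vary like the other groups. The cause of these changes was not tested.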
